A study of Mus musculus with 6 samples.

Results

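Cytosolic ribosomal protein genes were examined in RNA-seq libraries from mouse hearts collected 14 days after myocardial infarction (MI). The members were all protein-coding genes of the count table with an Rpl or Rps symbol and a number, together with Rplp0, Rplp1, Rplp2 and Rpsa, without Rps6 kinases and pseudogenes, that summed to at least 60 counts over the 6 libraries. This rule used no comparison between genotypes and kept 78 genes of the 38293 in the table, 47 of the large and 31 of the small ribosomal subunit. Of 84 genes with such a symbol, 6 fell under the threshold, namely Rpl10l (0 counts), Rps16 (10), Rpl39l (19), Rps29 (32), Rpl38 (40) and Rpl23a (46). The members just inside it were Rps27 with 61 counts and Rps13 with 68.

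Mice backcrossed to C57BL/6J per the labels underwent permanent ligation of the left anterior descending coronary artery. Adult males were used per the methods of the study, which give their age as 8 to 10 weeks at surgery in one place and 8 to 9 weeks in another. All animals carried floxed Zeb2 alleles. The control group (n = 3, labelled WT) was Zeb2 fl/fl without Cre according to those methods, and the Zeb2 cKO group (n = 3) additionally carried Cre under the αMHC (Myh6) promoter, which acts in cardiomyocytes, so that other cells of the heart keep Zeb2. The labels name the border region as the tissue and the methods name the remote zone, and which of them was sampled is not settled by the labels. Each library held between 37288174 and 51136331 counts.

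The cytosolic ribosome is built from ribosomal RNA and a fixed set of proteins, 1 copy of most of them per particle. The mRNAs of these proteins begin with a pyrimidine-rich 5′ terminal stretch (the TOP motif), through which the mTOR pathway controls their translation as a group. Their genes are among the most copied in mammalian genomes, since reverse-transcribed mRNAs have left many processed pseudogenes. The heart expresses Rpl3l, a paralogue of Rpl3 found mainly in striated muscle.

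The identity of their coding sequences bears on every value below, because a read that matches several genes may be counted for none of them or for the wrong one, and how such reads were treated is not given in the sources used here. Rps27, a small-subunit protein, is the clearest case. The first 75 coding bases of Rps27, the length of a read (chr3:90212522-90213651, minus strand, GRCm38), of Rps27rt (chr9:114982366-114982739, minus strand) and of the paralogue Rps27l are shown from Gencode M21 transcripts, with capitals for the bases that differ from Rps27.
Rps27: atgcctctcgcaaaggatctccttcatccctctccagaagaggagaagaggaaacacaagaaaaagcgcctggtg
Rps27rt: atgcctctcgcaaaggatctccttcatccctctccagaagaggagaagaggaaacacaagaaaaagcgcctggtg
Rps27l: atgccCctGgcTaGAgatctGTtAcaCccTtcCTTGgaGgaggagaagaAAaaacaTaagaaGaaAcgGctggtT
Rps27 and Rps27rt were identical over all 252 coding bases, and Rps27l differed from Rps27 at 22 of the 75 bases shown. Rps27 held 61 counts over the 6 libraries, Rps27rt 3212 and Rps27l 4823.

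This measure was extended to all members as the share of 75-base windows of the coding sequence that occurred in no transcript of another gene. The share was 0% in 23 members, above 0% and under 50% in 38, and 50% or more in 17. At least 1 near-identical stretch (at least 95% identity over at least 75 bases) to another gene was found for 74 of the 78 members, with a median of 7 such genes per member. Levels are given as CPM, the counts divided by the TMM-scaled library size and multiplied by 1000000, and between genes as CPM per kb of the principal transcript. The median level per kb was 1.53 CPM in the members with no unique window, 12.6 CPM in the middle class and 82.4 CPM in the most unique class. Spearman's rho between the unique share and the level per kb was 0.742 over the 78 members, as a description only, because all points share the same libraries. Exceptions were found in both directions. Rpl41, the smallest ribosomal protein, had 73.6 CPM per kb and 0% unique windows, a share that rests on 1 window because its coding sequence is 75 bases long, and Rpl7l1, a paralogue of Rpl7, had 92.6% unique windows and 11.6 CPM per kb. Levels of proteins that the ribosome holds in equal number can therefore not be compared as measured here, and Rps6 (0.502 CPM per kb, 0% unique) cannot be set against Rps3 (57.7 CPM per kb, 100% unique). Of the 6 genes left out for low counts, 4 had no unique window.

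**Figure D1:**
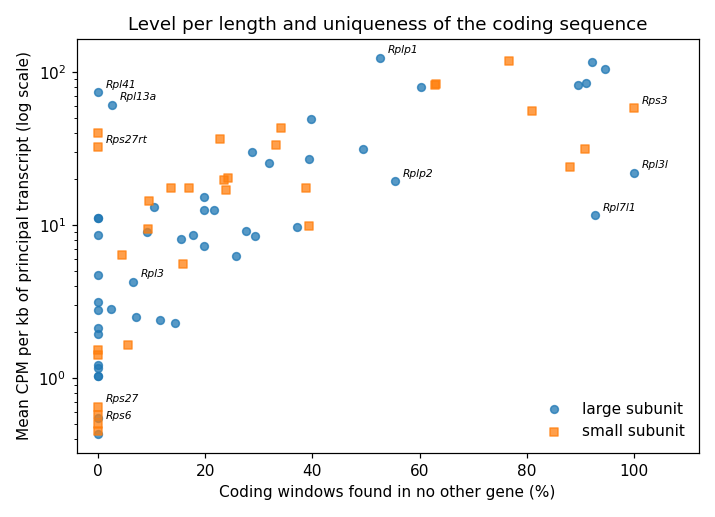
Mean level of 77 of the 78 members per kb of its principal transcript (log axis) against the share of its 75-base coding windows found in no other gene; circles are large-subunit and squares small-subunit genes. The classes with 0%, under 50% and 50% or more unique windows had median levels of 1.53, 12.6 and 82.4 CPM per kb over all 78 members.

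A single library stood apart before any comparison was made. The 78 members summed to 1331 CPM in WT 1, 2198 CPM in WT 2 and 1540 CPM in WT 3, and to 1580, 1449 and 1496 CPM in Zeb2 cKO 1 to 3. WT 2 was the highest of the 6 libraries, and the Zeb2 cKO libraries lay within the range of the WT libraries. The mean was 1690 ± 452 CPM in WT and 1509 ± 66.3 CPM in Zeb2 cKO (SD, n = 3 each), and WT without WT 2 averaged 1436 CPM. WT 2 held the highest value of 57 of the 77 members that passed the filter on low counts, against 35.2% of all 14746 genes that passed it. WT 1 held the lowest value of 47 of them. The median ratio of WT 2 to the mean of the other 5 libraries was 1.46 over the members and 0.988 over all genes.

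Markers of cell types moved with this library. The 10 fibroblast markers (among them Col1a1, Col3a1 and Dcn) summed to 9764 CPM in WT 2 and to between 1714 and 2382 CPM in the other 5 libraries, and all 10 were highest in WT 2. The 10 macrophage markers summed to 888 CPM in WT 2 against 223 to 313 CPM elsewhere, again with all 10 highest in WT 2. The 10 cardiomyocyte markers, including Myh6 and Tnnt2, summed to 12218 CPM in WT 2 and to between 19271 and 24292 CPM in the others, and none of them was highest in WT 2. No marker of these 3 lists was at 0, and the cardiomyocyte markers of the labelled tissue were present in every library. The part of cell composition in the level of ribosomal protein mRNA was not tested, and in bulk tissue fewer cells of a type and less RNA per cell cannot be told apart. Most of the genotype results that follow are therefore set beside their values without WT 2.

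**Figure D2:**
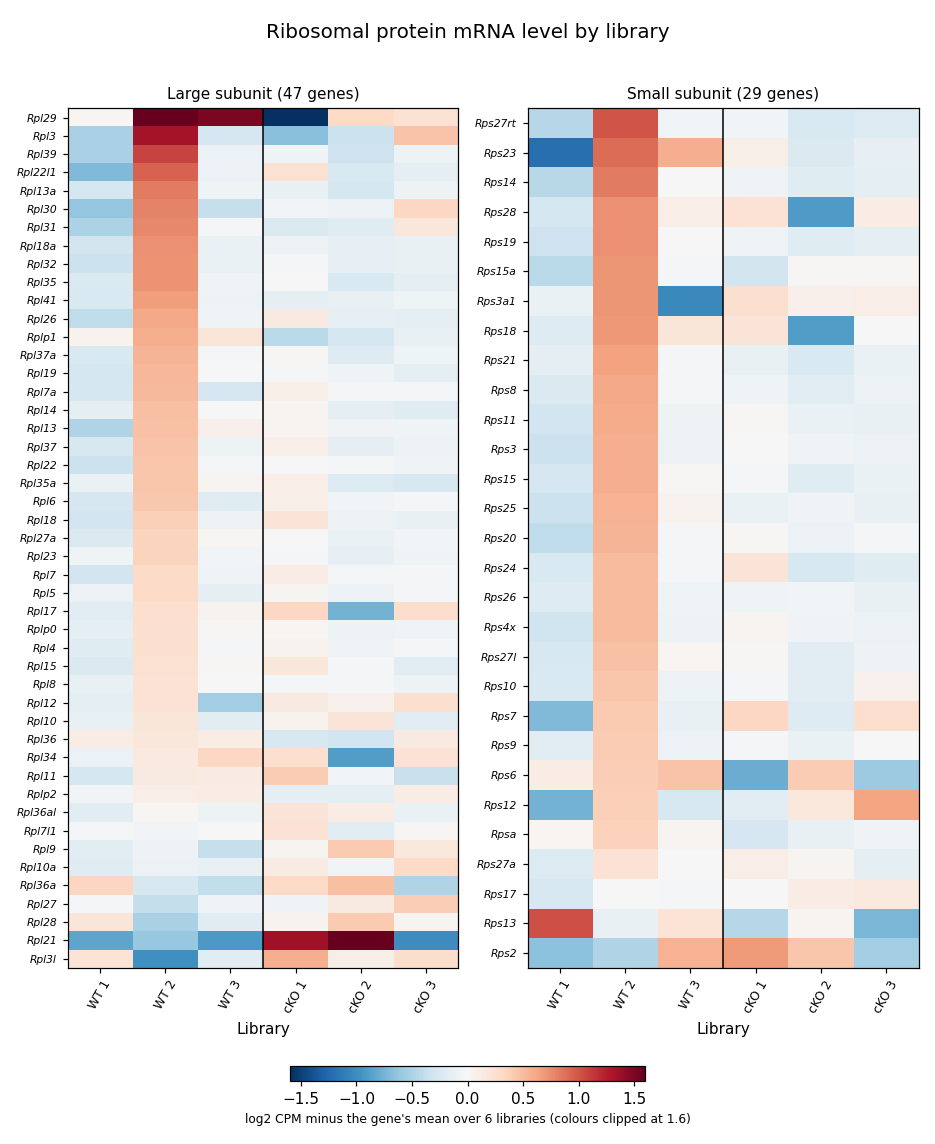
Level of 76 of the 77 tested members in the 6 libraries as log2 CPM minus the mean of that gene, large subunit left and small subunit right, each in the order of the value in WT 2. Red marks values above the mean of the gene and blue values below it; of all 77 tested members, 57 were highest in WT 2 and 47 lowest in WT 1.

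**Figure D3:**
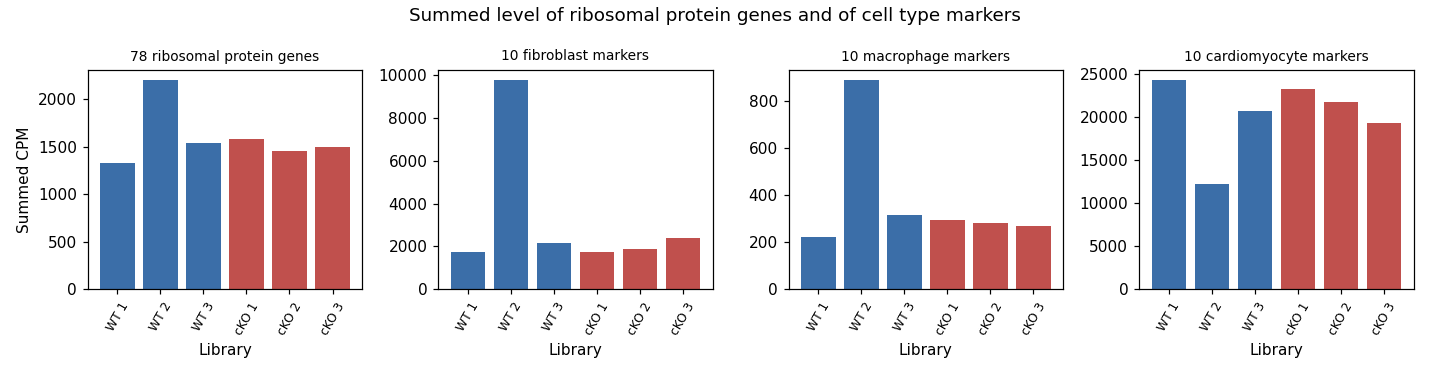
Summed CPM per library of the 78 ribosomal protein genes and of the 10 fibroblast, 10 macrophage and 10 cardiomyocyte markers, WT libraries in blue and Zeb2 cKO libraries in red. WT 2 was highest for the first 3 sums and lowest for the cardiomyocyte markers.

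The question put to the data was whether ribosomal protein mRNAs differed between Zeb2 cKO and WT hearts. No member passed the test, an edgeR quasi-likelihood fit over 14746 genes at a Benjamini-Hochberg adjusted p of 0.05, in which 0% of all genes passed in either direction. The adjusted p of the members ranged from 0.957 to 0.999, and DESeq2 called 0 members as well. At an unadjusted p of 0.05, 1 member was lower in Zeb2 cKO (0.861% of all genes) and 1 was higher (1.04% of all genes). The value of Zeb2 itself was 61.3, 116 and 71.9 CPM in WT and 59.6, 72.6 and 66.5 CPM in Zeb2 cKO, with overlapping groups. Its log2 fold change was -0.33 (SE 0.25, adjusted p = 0.957 in the edgeR fit), and it was -0.01 without WT 2.

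The median log2 fold change of the 77 members (Zeb2 cKO minus WT) was -0.15, and that of all genes was -0.01. A value below 0 was found in 59 of 77 members and in 51.4% of all genes. The middle 50% of the members lay between -0.26 and -0.01, and 70 of 77 were within 0.5 of 0, with standard errors from 0.13 to 0.82. Large-subunit members had a median of -0.09 (34 of 47 below 0) and small-subunit members of -0.21 (25 of 30 below 0). The classes by uniqueness had medians of -0.02 (no unique window), -0.19 (under 50%) and -0.15 (50% or more). In the same order they were 0.11, 0.13 and 0.06 without WT 2. Without WT 2 the direction was the opposite. The median over 78 members was then 0.10 against 0.00 over all genes, and 62 of 78 members were above 0, as were 50.9% of all genes. The large-subunit median was 0.13 and the small-subunit median 0.07. The sign changed in 43 of the 77 members that both fits shared. The direction in which ribosomal protein mRNA moved as a group thus rested on 1 of the 6 libraries.

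**Figure D4:**
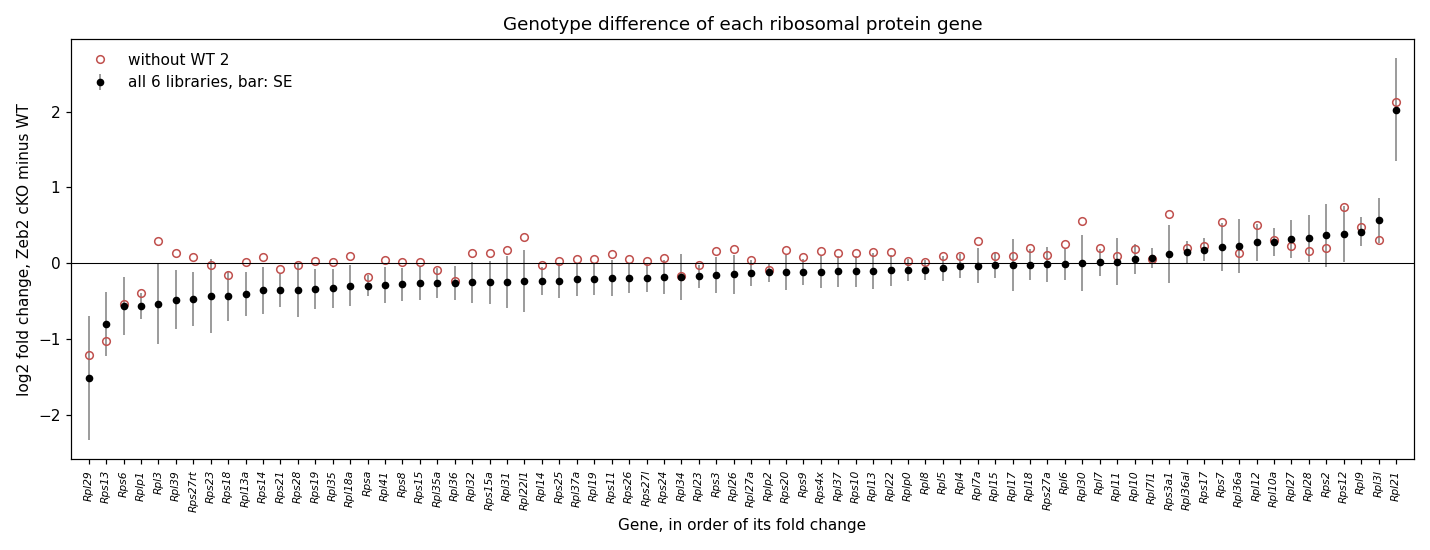
Fitted log2 fold change (Zeb2 cKO minus WT) of 76 of the 77 tested members in order, with all 6 libraries (black, bars show 1 SE) and without WT 2 (open red circles). The median of all members was -0.15 with WT 2 and 0.10 without it, and none passed at an adjusted p of 0.05.

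The P-stalk recruits translation factors to the large subunit and consists of Rplp0 with Rplp1 and Rplp2. Rplp1 (chr9:61913284-61914542, minus strand, GRCm38) was the member with the smallest unadjusted p. Its level was 62.4, 90.0 and 68.7 CPM in WT and 44.8, 49.5 and 55.5 CPM in Zeb2 cKO. All Zeb2 cKO libraries were below all WT libraries. The means were 73.7 ± 14.4 and 49.9 ± 5.38 CPM (SD over 3 libraries). The fit gave a log2 fold change of -0.56 with SE 0.17 (unadjusted p = 0.0149, edgeR adjusted p = 0.957, so not called). Without WT 2 the log2 fold change was -0.39 with SE 0.12 (unadjusted p = 0.0117, edgeR adjusted p = 0.9997), and the groups still did not overlap. Its unadjusted p was under 0.05 in 5 of the 6 fits that left out 1 library, the exception being the fit without Zeb2 cKO 1. These fits share libraries and are not independent checks. With scaling by library size alone, Rplp1 was not under an unadjusted p of 0.05, and its groups overlapped. When the counts of near-identical pseudogenes were added, its log2 fold change was -0.48 (unadjusted p = 0.0460, edgeR). The coding windows of Rplp1 were 52.6% unique, and it has 3 near-identical genes. Its partner Rplp2 measured 7.83, 8.75 and 8.83 CPM in WT and 7.29, 7.28 and 8.78 CPM in Zeb2 cKO, with overlapping groups and a log2 fold change of -0.12 (SE 0.13), or -0.09 without WT 2. Rplp0, their anchor on the ribosome, measured 96.1, 128 and 108 CPM in WT and 110, 101 and 102 CPM in Zeb2 cKO (log2 fold change -0.09, SE 0.15, and 0.03 without WT 2). The difference in Rplp1 was not accompanied by one of the same size in the rest of the stalk, although the difference between the genes was not tested.

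Groups that did not overlap were found in 4 of 77 members. In addition to Rplp1, Rpsa was lower in Zeb2 cKO, and lower non-overlapping groups made up 2.97% of all genes. Rpsa, a small-subunit protein also known as the laminin receptor precursor, measured 23.3, 29.5 and 23.6 CPM in WT and 19.1, 21.1 and 22.1 CPM in Zeb2 cKO. Its log2 fold change was -0.30 (SE 0.14, unadjusted p = 0.0652 in the edgeR fit), and -0.17 without WT 2 (unadjusted p = 0.134, edgeR). Its coding windows were 9.49% unique, and it has 12 near-identical genes. The higher members were Rpl9 and Rpl10a, where higher non-overlapping groups made up 3.39% of all genes. Rpl9, a protein near the base of the P-stalk, measured 1.67, 1.78 and 1.46 CPM in WT and 1.94, 2.51 and 2.12 CPM in Zeb2 cKO (log2 fold change 0.42, SE 0.19, and 0.48 without WT 2). Rpl10a, which forms the L1 stalk, measured 1.41, 1.50 and 1.48 CPM in WT and 1.76, 1.57 and 2.01 CPM in Zeb2 cKO (log2 fold change 0.28, SE 0.18, and 0.30 without WT 2). Rpl9 and Rpl10a held few counts, 517 and 440 over all libraries, and few unique windows, 2.39% and 0%. When the counts of near-identical pseudogenes were added to each member, the log2 fold change of Rpl9 became -0.02, that of Rpl10a -0.29 and that of Rpsa -0.06, and no member was left with non-overlapping higher values. With 3 libraries per group, the smallest p an exact two-sided permutation test can give is 0.1. Groups that do not overlap always give this value, so it adds nothing for these 4 genes.

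**Figure D5:**
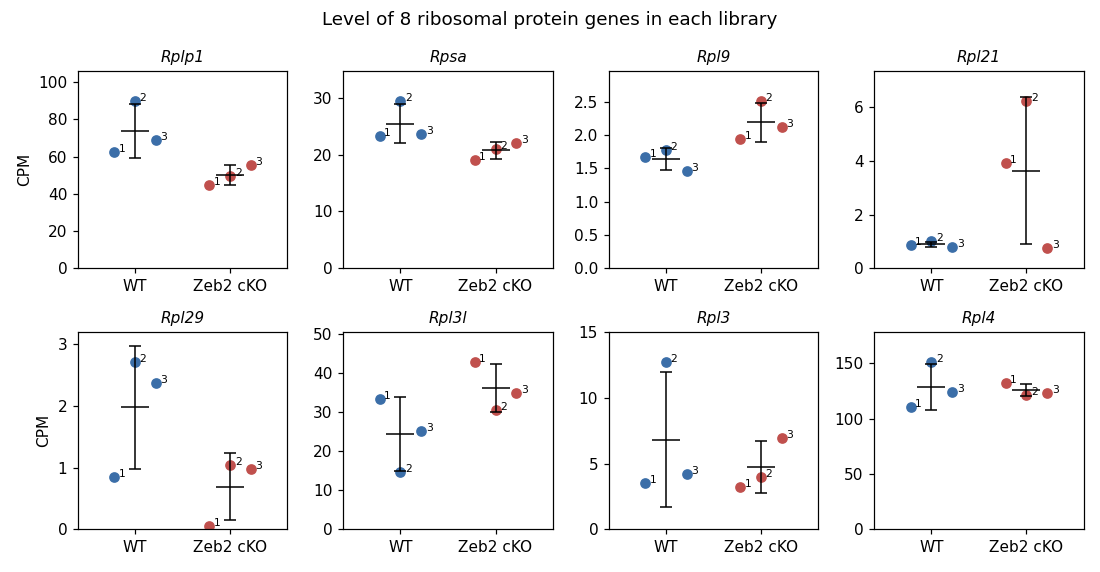
CPM of 8 members in each library, with the replicate number beside each point, and the mean with SD (n = 3) in black; WT blue, Zeb2 cKO red, each axis from 0. The groups did not overlap for Rplp1, Rpsa and Rpl9, and the Zeb2 cKO values of Rpl21 were high in libraries 1 and 2 only.

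Leaving out WT 2 brought other members forward. At an unadjusted p of 0.05, 6 of 78 were then higher in Zeb2 cKO, against 1.55% of all genes, and 2 were lower, against 1.08% of all genes. None passed after adjustment, and 0% of all genes did. The higher genes were Rpl21, Rpl30, Rpl7a, Rps3a1, Rpl9 and Rpl6, with log2 fold changes between 0.25 and 2.12, and the lower ones were Rplp1 and Rps13. Rpl30 measured 3.24, 8.57 and 3.85 CPM in WT and 4.80, 4.66 and 6.22 CPM in Zeb2 cKO, so that WT 2 alone was above the Zeb2 cKO libraries. Its log2 fold change was 0.00 with all libraries and 0.56 (SE 0.18) without WT 2. Non-overlapping groups were then found in 11 of 78 members that were higher (8.31% of all genes) and 3 that were lower (7.22% of all genes). Most members were highest in WT 2, so leaving it out raises their fold changes by construction. These counts can therefore not show an effect of genotype. Leaving out WT 1, the lowest library for 47 of 77 members, went the other way. The member median was then -0.28, and 17 of 78 members were lower without overlap (12.1% of all genes) and 7 higher (10.9%).

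Paralogue pairs showed where members departed from the common pattern. Rpl3 lies at the peptidyl transferase centre, and Rpl3l takes its place in ribosomes of striated muscle. No 75-base coding window of Rpl3l occurs in another gene, so Rpl3l can be told apart from Rpl3, whereas most windows of Rpl3 occur in other genes. The first 75 coding bases of Rpl3 (chr15:80077791-80091868, minus strand) and Rpl3l (chr17:24727820-24736143, plus strand) are shown, with capitals for bases that differ between them.
Rpl3: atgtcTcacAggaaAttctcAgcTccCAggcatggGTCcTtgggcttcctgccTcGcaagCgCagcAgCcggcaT
Rpl3l: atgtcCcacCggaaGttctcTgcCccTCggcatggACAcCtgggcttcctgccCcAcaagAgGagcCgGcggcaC
They differed at 18 of these bases, and 100% of the coding windows of Rpl3l were unique, against 6.61% of those of Rpl3, which has 7 near-identical genes.

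Rpl3l measured 33.3, 14.6 and 25.2 CPM in WT and 42.8, 30.7 and 34.8 CPM in Zeb2 cKO. WT 2 was the lowest library, opposite to most members, and WT 1 lay within the Zeb2 cKO range, so the groups overlapped. The means were 24.4 ± 9.38 and 36.1 ± 6.17 CPM (SD over 3 libraries). In the fit Rpl3l differed by 0.57 on the log2 scale (SE 0.30, unadjusted p = 0.0981 and adjusted p = 0.957 in the edgeR fit), and by 0.31 without WT 2. Rpl3 measured 3.53, 12.7 and 4.22 CPM in WT and 3.20, 4.01 and 6.96 CPM in Zeb2 cKO, highest in WT 2 and then in Zeb2 cKO 3. Per kb of exon, Rpl3l made up 94.8% of the pair in WT 1 (95% Wilson interval 93.8 to 95.6%), 68.9% in WT 2 (66.4 to 71.2%) and 92.0% in WT 3 (90.7 to 93.2%). In Zeb2 cKO it made up 96.3% (95.7 to 96.8%), 93.7% (92.7 to 94.5%) and 90.6% (89.6 to 91.5%). These intervals cover counting error only. The group means were 85.2 ± 14.2% in WT and 93.5 ± 2.83% in Zeb2 cKO (SD, n = 3 each), and WT without WT 2 averaged 93.4%. The difference of 8.28 percentage points came down to 0.10 without WT 2. Per kb of the principal transcript the shares were lower, 90.3, 52.9 and 85.5% in WT and 92.9, 88.2 and 83.1% in Zeb2 cKO, and the means of 76.2 ± 20.3% and 88.1 ± 4.92% (SD over 3 libraries) differed by 11.9 percentage points, with 87.9% in WT without WT 2. The share of Rpl3l is an upper estimate to the extent that Rpl3 reads with several matches were not counted, which was not tested.

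Most genes of the remaining pairs followed the common pattern or held few counts. Rpl36al and Rpl7l1 did neither and were highest in Zeb2 cKO 1. Rpl22, an RNA-binding large-subunit protein, measured 31.4, 54.1 and 39.4 CPM in WT and 39.6, 39.3 and 38.2 CPM in Zeb2 cKO. Rpl22l1, its paralogue, measured 1.99, 6.27 and 3.05 CPM in WT and 3.88, 2.77 and 2.96 CPM in Zeb2 cKO. Both were highest in WT 2, and the spread among the WT libraries exceeded the difference between the groups. The log2 fold change of Rpl22 was -0.09, and 0.15 without WT 2, and that of Rpl22l1 was -0.24, and 0.35 without WT 2. Rps27l measured 14.9, 24.7 and 18.2 CPM in WT and 17.9, 15.7 and 16.8 CPM in Zeb2 cKO, and Rps27rt measured 8.23, 22.6 and 10.9 CPM in WT and 11.0, 9.56 and 9.73 CPM in Zeb2 cKO. Rps27 was too low for the filter, with 8, 7 and 6 counts in WT and 10, 13 and 17 counts in Zeb2 cKO. Rpl36a and Rpl36al encode nearly the same protein and differed at 39 of 318 coding bases, and neither had a unique window. Rpl36al measured 3.98, 4.58 and 4.25 CPM in WT and 5.18, 4.89 and 4.17 CPM in Zeb2 cKO (log2 fold change 0.15, SE 0.15, and 0.21 without WT 2). Rpl7, with 39.8% unique windows, measured 45.9, 70.5 and 54.7 CPM in WT and 61.7, 55.4 and 55.6 CPM in Zeb2 cKO, while Rpl7l1 stayed between 13.4 and 17.8 CPM in all 6 libraries.

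Rpl4 and Rps3 held the most counts of the members, and their windows were mostly unique. Rpl4, which lines the exit tunnel, had the highest mean CPM, with 110, 151 and 124 CPM in WT and 132, 122 and 123 CPM in Zeb2 cKO (log2 fold change -0.03, SE 0.16, and 0.10 without WT 2). Rps3, at the mRNA entry site, measured 85.0, 161 and 102 CPM in WT and 107, 104 and 101 CPM in Zeb2 cKO (log2 fold change -0.15, SE 0.24, and 0.16 without WT 2). In both genes WT 2 was the highest and WT 1 the lowest library, and the Zeb2 cKO libraries lay between them. The excess of WT 2 was unequal among members. It was small in Rpl4, Rplp0 and Rpl8, the last with 81.2, 104 and 88.9 CPM in WT 1 to 3. It was larger in Rpl13a, Rps14 and Rpl39. Rpl13a measured 50.6, 110 and 58.6 CPM in these libraries, Rps14 34.6, 84.1 and 47.2 CPM and Rpl39 12.4, 37.7 and 16.6 CPM.

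Members with known roles outside the ribosome or in disease were not called either. Rps19, altered in Diamond-Blackfan anaemia, measured 17.8, 37.3 and 22.4 CPM in WT and 21.5, 19.5 and 20.2 CPM in Zeb2 cKO (log2 fold change -0.34, and 0.03 without WT 2). Rpl5, which with Rpl11 and 5S RNA can bind Mdm2, measured 4.06, 5.36 and 3.93 CPM in WT and 4.46, 4.06 and 4.24 CPM in Zeb2 cKO (log2 fold change -0.07, and 0.09 without WT 2). Rpl11 and Rps6, the substrate of S6 kinase, held 123 and 114 counts in all, with no unique window. Rps6 measured 0.451, 0.547 and 0.573 CPM in WT and 0.240, 0.553 and 0.279 CPM in Zeb2 cKO, where cKO 2 lay within the WT range (log2 fold change -0.56, SE 0.38). The log2 fold change of Rps6 was -0.53 without WT 2 and -1.002 without Zeb2 cKO 2 (unadjusted p = 0.0254, edgeR), and -0.07 when the counts of its near-identical pseudogenes were added.

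A few members were far from the others in single libraries. After the values were seen, a library was listed for a member when its log2 level departed from the median departure of the members in that library by more than 0.8, and 10 members had 16 such values. Only 1 of these, Rpl3l, had 50% or more unique windows. Rpl21 (chr5:146832890-146837032) held 32, 44 and 31 counts in WT and 196, 271 and 41 counts in Zeb2 cKO. Zeb2 cKO 1 and 2 were high and Zeb2 cKO 3 was at the WT level, and the log2 fold change of 2.03 (SE 0.68, unadjusted p = 0.0208 and adjusted p = 0.957 in the edgeR fit) rests on those libraries. Its unadjusted p was under 0.05 in 2 of the 6 fits that left out 1 library, those without WT 2 and without Zeb2 cKO 3. Its windows were 7.14% unique, and it has 62 near-identical genes. Rpl29, a heparin-binding large-subunit protein, held 32, 119 and 91 counts in WT and 3, 45 and 53 counts in Zeb2 cKO, so that Zeb2 cKO 1 was nearly empty. Its log2 fold change of -1.51 had the largest SE of the members, 0.82. The log2 fold change of Rpl29 was -1.21 without WT 2 and -0.97 without Zeb2 cKO 1. The lowest value with 1 library left out was -1.90, without Zeb2 cKO 2.

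Other departures cut across the genotypes. Rps2, which lies near the mRNA entry, measured 9.98, 11.3 and 23.3 CPM in WT and 25.3, 21.4 and 10.8 CPM in Zeb2 cKO, so that each group held low and high libraries. Rps3a1 measured 17.4, 30.4 and 9.17 CPM in WT and 22.3, 19.7 and 20.2 CPM in Zeb2 cKO, with WT 3 lowest. Rps18 (chr17:33951999-33956001) and Rps28 (chr17:33819027-33824562) lie close to each other and were both lowest in Zeb2 cKO 2. Rps18 measured 12.0, 5.65 and 10.5 CPM and Rps28 12.0, 5.48 and 11.1 CPM in the Zeb2 cKO libraries, and Rpl34 on chromosome 3 measured 14.9, 6.71 and 14.6 CPM. Annotated exons of Rps18 overlap those of Vps52, and exons of Rps28 those of Kank3, on the opposite strand. These 5 genes had 39.4% unique windows or fewer.

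Rack1 and Fau are ribosomal proteins under other names. Rack1, on the head of the small subunit, measured 109, 180 and 122 CPM in WT and 123, 111 and 119 CPM in Zeb2 cKO (log2 fold change -0.22, SE 0.21, and 0.03 without WT 2). It was highest in WT 2, as were 57 of the 77 tested members, and lowest in WT 1, as were 47 of them. Fau was below 0.51 CPM in every library and did not pass the filter.

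The wider translation machinery gave no call in either direction in edgeR, and apart from Gspt2 no gene of the following 5 lists had an unadjusted p under 0.05. Of 38 initiation factors, 0 passed the adjusted p, the median log2 fold change was 0.01 (0.04 without WT 2) and 12 were highest in WT 2. Of 15 elongation and termination factors, 0 passed and the median was 0.01 with and without WT 2. Gspt2, a release factor subunit, was the single one under an unadjusted p of 0.05 and measured 0.372, 0.775 and 0.599 CPM in WT and 0.260, 0.300 and 0.316 CPM in Zeb2 cKO (log2 fold change -0.99, SE 0.34). Without WT 2 its log2 fold change was -0.73 (unadjusted p = 0.079, edgeR). Eef1a1 and Eef1a2 deliver aminoacyl-tRNA, the latter in muscle and neurons. Eef1a1 measured 169, 484 and 212 CPM in WT and 199, 187 and 222 CPM in Zeb2 cKO, whereas Eef1a2 measured 309, 124 and 293 CPM in WT and 319, 290 and 277 CPM in Zeb2 cKO. WT 2 was thus highest for the first and lowest for the second, as for Rpl3 and Rpl3l.

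Among 48 genes of ribosome biogenesis, 46 were tested, 0 passed, and the median log2 fold change was 0.08 (0.02 without WT 2), with 7 highest in WT 2. Of the 46, 32 were above 0. Higher groups without overlap were found in 6 of them (3.39% of all genes), and lower ones in 0. Among 19 genes of mTOR signalling and TOP mRNA control, 0 passed, the median was 0.00 (-0.06 without WT 2) and 5 were highest in WT 2. Larp1, which binds TOP mRNAs, measured 39.3, 31.0 and 37.7 CPM in WT and 32.0, 31.9 and 38.6 CPM in Zeb2 cKO, and Mtor measured 50.4, 26.7 and 46.1 CPM in WT and 44.5, 43.0 and 43.3 CPM in Zeb2 cKO. Both were lowest in WT 2. Of 18 TOP mRNAs that encode no ribosomal protein, 0 passed, 11 were highest in WT 2, and the median was -0.04 with WT 2 and 0.08 without it, the same turn of direction as in the members. Of 432 protein-coding genes other than the members whose longest transcript is shorter than 1000 bases, as most members are short, 134 were highest in WT 2, and their median was 0.01 with WT 2 and 0.03 without it.

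The start of transcription was examined for the members with a promoter in the RefSeq table (GRCm38.p6), which were 60 genes with 72 starts. An unbroken run of at least 8 pyrimidines (C or T, transcribed strand) within 25 bases of the start was found in 44.4% of these starts and in 19.7% of all 32851 starts in the table. The motif CCGGAAG, the core bound by ETS factors, was present on either strand within 250 bases before to 50 after the start in 34.7% of them and in 8.86% of all. Windows of 15 bases on each side of the start are shown for abundant members that have a run and for Rpl3l, with the longest run in capitals.
Rpl4 (chr9:64173372-64173401, plus strand): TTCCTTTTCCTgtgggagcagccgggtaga
Rpl13a (chr7:45128731-45128760, minus strand): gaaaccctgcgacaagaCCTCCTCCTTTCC
Rps9 (chr7:3704026-3704055, plus strand): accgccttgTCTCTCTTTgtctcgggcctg
Rpl3l (chr17:24727811-24727840, plus strand): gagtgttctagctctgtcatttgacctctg
The runs of Rpl4 and Rpl13a were 14 bases long and reached past the printed window, that of Rpl4 at its start and that of Rpl13a at its end, and that of Rps9 was 9 bases long. The first of the 2 listed starts of Rpl3l, shown here, had no such run within 25 bases. Nor had the listed starts of Rps3 and Rplp0, which held more counts than Rpl13a and Rps9. A match describes the letters in the window and not a functional site.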

How the data were processed

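RNA-seq of mouse hearts (3 WT and 3 Zeb2 cKO, 14 days after MI) was deposited by the authors as raw read counts per gene; strand-specific single-end 75-base reads of ribosomal RNA-depleted libraries had been aligned and counted with the STAR workflow on Gencode M4 (GRCm38), and the submitters' processing notes name DESeq 1.2. Whether reads with several matches were counted, and the strand setting, is not given in the sources used here. Symbols came from Gencode M21 by Ensembl ID. Genes with low counts were removed with filterByExpr (14746 kept), and Zeb2 cKO was tested against WT with TMM scaling and quasi-likelihood in edgeR 4.0.16 (all 6 libraries, adjusted p under 0.05). DESeq2 1.42.0, other scalings, filters, robust estimation, a replicate block, libraries left out and pseudogene sums were alternatives. Near-identical stretches were found with BLAST 2.17.0. The fit was tested on simulated counts. The replicates are labelled only by number, so p-values measure the spread between these samples. Members and lists were chosen with earlier results of these data known. Genes named were both members of 8 paralogue pairs, the P-stalk, 7 members with known other roles, the 5 lower and 5 higher with the smallest p, the highest and lowest, Rack1, Fau and Zeb2; further members were named after their values were seen. Single values of a few genes are not reported here.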

Additional observations from a re-analysis of the deposited data

How the results depend on the processing

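No member, and no gene of the translation lists, passed an adjusted p of 0.05 under any of the alternatives run, and no gene did in edgeR; DESeq2 called 2 genes, both higher and neither a member. Library size alone gave 0 lower and 2 higher members at unadjusted p and 0 lower and 1 higher member that did not overlap. Pseudogene sums gave 2 lower at unadjusted p and 0 higher that did not overlap, and turned Rpl10a (-0.29), Rpl11 (-0.073), Rpl7 (-0.013) and Rpl9 (-0.023). The same replicate numbers do not pair the animals: deviations from the group means correlated at 0.0878, -0.138 and -0.0869, and no sample correlated best with its own number. The replicate block gave 2 lower and 2 higher members at unadjusted p and a member median of -0.10. Shares of all genes are not given for library size alone, pseudogene sums and the replicate block, so these member counts have no background. Leaving out each library gave a member median from -0.28 (without WT 1) to 0.10 (without WT 2), a summed log2 ratio from -0.31 to 0.07, an Rpl3l share difference from 0.10 to 13.1 percentage points, 0 to 5 lower and 0 to 6 higher members at unadjusted p, and 2 to 17 lower and 2 to 11 higher that did not overlap, where 17 was without WT 1 (12.1% of all genes) and 11 without WT 2 (8.31%). The 5 lower members at unadjusted p were without WT 1, where 5.49% of all genes were lower, and the 6 higher ones without WT 2 (1.55%). Most sign changes of single genes came without WT 2. The ranges were -0.36 to 0.026 (Rack1), -0.030 to 0.18 (Rpl10), -0.21 to 0.19 (Rpl11), -0.61 to 0.019 (Rpl13a), -0.26 to 0.15 (Rpl22), -0.54 to 0.35 (Rpl22l1), -0.93 to 0.29 (Rpl3), -0.77 to 0.14 (Rpl39), -0.13 to 0.10 (Rpl4), -0.15 to 0.093 (Rpl5), -0.12 to 0.20 (Rpl7), -0.047 to 0.16 (Rpl7l1), -0.18 to 0.031 (Rplp0), -0.55 to 0.028 (Rps19), -0.35 to 0.031 (Rps27l), -0.33 to 0.16 (Rps3) and -0.28 to 0.16 (Rps4x). Rplp1 stayed lower, from -0.67 to -0.39. Restricting the median to the most unique members was chosen after seeing the data and gave -0.15, or 0.06 without WT 2. The causes were not tested.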
